A study of Mus musculus with 15 samples.

Results

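Cells answer virus-like nucleic acids and interferons with a shared set of antiviral genes, and 38 of these genes were followed here through mouse neuroendocrine lung cancer cells grown in culture and as tumors. The members were taken by gene name and not by a measured value. They were 4 transcription factors, 5 RNA and DNA sensors, 5 oligoadenylate synthetases, 4 IFIT proteins, 5 Mx and guanylate-binding GTPases, 5 genes of the ubiquitin and ISG15 system, 3 PARPs and 7 other antiviral effectors. They are 38 of the 55359 genes of the matrix, of which 29990 had a value above 0 in some sample. Psmb10, a subunit of the immunoproteasome, was listed at 0 in all 15 samples, which left 37 members with values.

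RNA was sequenced in 5 groups of 3 samples. The 46LCNEC_cell samples are dishes A, B and C of an adherent line from a large cell neuroendocrine carcinoma that arose in QKO mice after intratracheal Ad-CMVcre, an adenovirus with a general Cre promoter, and the 57SCLC_cell samples are flasks A, B and C of floating aggregates of a line from a small cell carcinoma that arose after Ad-K5cre, in which Cre is driven by the keratin K5 promoter. QKO mice carry floxed Rb1 and Trp53 and a further floxed tumor suppressor allele together with a null Rbl1 allele, so both lines come from this background. The 46LCNEC_allo (tumors 312, 319 and 321) and 57SCLC_allo (tumors 275, 316 and 317) samples are subcutaneous tumors of the same lines in immunocompetent QKO hosts, which carry the floxed alleles in their own cells, and Lung (CT3, CT4 and CT5) is normal lung of littermates of the hosts. Each tumor type is represented by a single line, the dishes and flasks share their line, and the tumors hold host cells, so p-values measure the spread between these samples. Ages, strain and the genotype of the littermates are not given in the sources used here.

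In uninfected cells most of these genes are kept low. Foreign or misplaced RNA is sensed by Ifih1 (MDA5) and DNA by Cgas, which lead to the making of interferons. Interferons bind their receptors and act through the kinases Jak1 and Tyk2 on Stat2 and Irf9, which take part in binding the interferon-stimulated response element (ISRE) of target genes. Interferon gamma acts through Jak1 and Jak2 on another element, GAS, and strongly induces Irf1 and the guanylate-binding proteins. Among the targets are the sensors themselves, so the system feeds back on itself, and Usp18 and Socs1 limit it.

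Library depth was lowest in tumor 275 of 57SCLC_allo (9480244 reads counted) and highest in flask C of 57SCLC_cell (44876572), where 1 read was worth 2.39 and 0.521 normalized counts. Flask C of 57SCLC_cell had 3.06% of genes at least 2-fold above both other flasks, but 0 of 25 members, by the counts themselves without a test. The 57SCLC samples had the neuroendocrine and epithelial markers Chga, Syp and Epcam, with Chga between 8951 and 12847 normalized counts. In 46LCNEC_cell, the neuroendocrine marker Ncam1 was between 28614 and 31510, but Chga was between 2.31 and 6.62, Syp between 10.8 and 15.5 and Epcam between 17.8 and 24.3, and the collagen gene Col1a1 was between 19769 and 22399. Of the 5 neuroendocrine markers listed, Ncam1 was thus the one present at a high level in this line. In 46LCNEC_allo, tumor 321 was the highest of its 3 tumors for 36 of 37 members and is therefore described first among the tumors. Rb1, Trp53 and Rbl1 had reads in every sample, and counts over whole genes do not check a deletion of part of a gene.

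Promoter sequences from RefSeq, as windows of 250 bases before to 50 bases after each start site on GRCm38.p6, were found for 29 of the 38 members in 33 windows. The core of the ISRE, GAAANNGAAA read on either strand, was in 14 of the 33 windows (42.4%) and in 3.44% of all 32851 windows, and the core of GAS, TTCNNNGAA, which reads the same on both strands, was in 21.2% and 8.3%. Some bases can belong to both motifs, and a match is a string of letters and not a known binding site. The stretches below are shown because the first 4 genes were under 10 normalized counts in every flask of 57SCLC_cell while the last 2 were over 100, although all 6 hold the ISRE core. They lie at chr3:142326355-142326384 (plus strand, Gbp2), chr3:142265753-142265782 (plus, Gbp3), chr19:34560748-34560827 (plus, Ifit3), chr4:156285328-156285357 (minus, Isg15), chr12:26506517-26506596 (minus, Rsad2) and chr5:120915745-120915824 (minus, Oas3) of GRCm39, where each was placed by an exact match, all within 181 bases upstream of the start site of the RefSeq window. Each is written in the direction of the gene, with the ISRE cores in capitals, and those of Gbp2, Gbp3 and Isg15 are kept to 30 bases because they lie in first exons that GENCODE annotates (Gbp2 and Gbp3) or next to an annotated exon (Isg15).
Gbp2: actcttttagTTTCACTTTCactgtcttaa
Gbp3: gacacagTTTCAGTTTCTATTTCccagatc
Ifit3: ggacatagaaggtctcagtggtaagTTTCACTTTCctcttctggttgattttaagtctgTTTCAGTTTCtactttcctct
Isg15: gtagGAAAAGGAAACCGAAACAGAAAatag
Rsad2: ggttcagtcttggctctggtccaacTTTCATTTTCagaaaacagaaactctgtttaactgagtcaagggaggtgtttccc
Oas3: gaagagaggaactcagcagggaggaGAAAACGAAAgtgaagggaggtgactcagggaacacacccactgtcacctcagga
Overlapping cores run together in Gbp3, which has 2, and in Isg15, which has 3. Of the 37 members with values, 12 had a mean under 10 normalized counts in 57SCLC_cell. Of these 12, 8 had a window and 7 of the 8 held the ISRE core. The core was also in 7 of the 21 other members with a window. Those 21 include Psmb10, which was listed at 0 in every sample and whose window lacked the core. This split was chosen after the levels were seen, so these counts are a description without a test.

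The 38 members lie on 15 chromosomes in GENCODE release 39 of GRCm39, and 19 of them lie in 7 clusters of neighbors within 500 kb. The 4 IFIT genes share chr19:34527932-34632174 and the 3 guanylate-binding genes chr3:142236044-142343779, with Oas2, Oas3 and Oas1a at chr5:120868398-121046449, Oasl2 and Oasl1 at chr5:115034997-115075974, Parp14, Dtx3l and Parp9 at chr16:35653231-35792980, Mx1 and Mx2 at chr16:97248235-97362100, and Rsad2 and Cmpk2 at chr12:26492745-26529836. Counts are less certain for genes whose exons meet those of another gene, since the strand setting of the counting is not stated. Such exons made up 46% of Irf1, 34.4% of Cgas, 31.1% of Isg15 and 24.5% of Ifi35 on the other strand, and 26.6% of Rtp4 and 10.6% of Gbp7 on the same strand. Ifit3 and Ifit3b are closely related copies that could share reads.

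**Figure D1:**
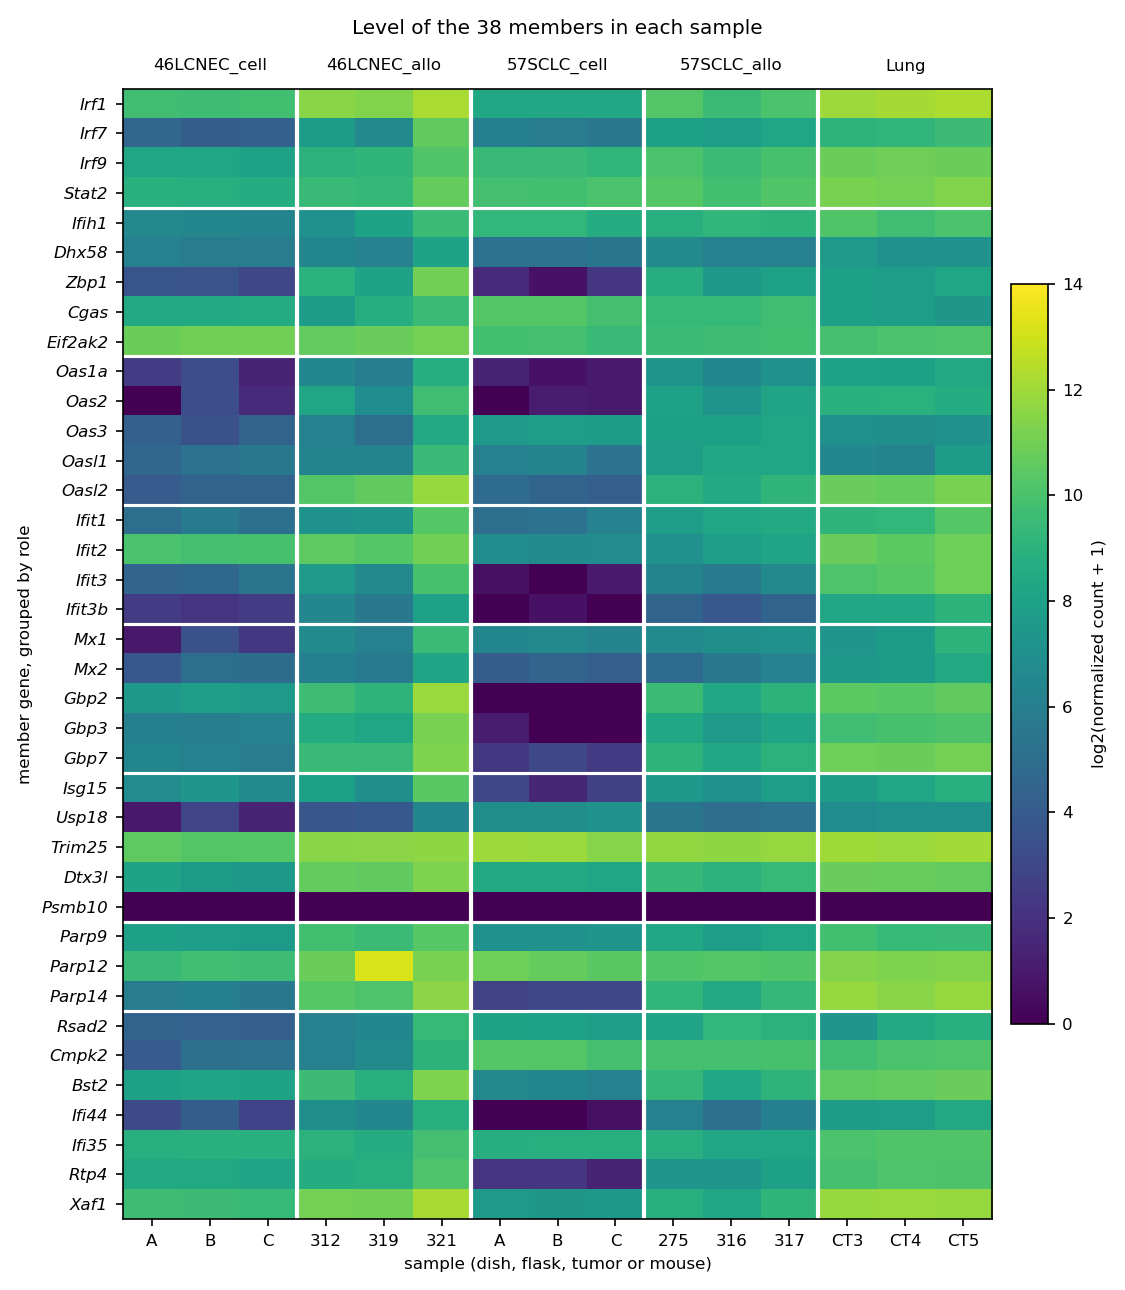
Level of each of the 38 members (rows, grouped by role) in each of the 15 samples (columns, by group), as log2(normalized count + 1) on the color scale. The rows of Gbp2, Gbp3, Ifit3 and Ifi44 are darkest in the 3 flasks of 57SCLC_cell, the column of tumor 321 is brighter than those of tumors 312 and 319, and Psmb10 is at 0 throughout.

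Lung had the highest mean of the 5 groups for 21 of the 37 members, and in Lung all 37 had a mean of at least 100 normalized counts. The highest mean was in 46LCNEC_allo for 9 members, which rested on tumor 321, since without it these were Zbp1, Parp9 and Parp12 (3 members) and Lung was highest for 27. With all samples, the highest mean was in 57SCLC_cell for Cgas, Usp18 and Cmpk2, in 57SCLC_allo for Oas3, Oasl1 and Rsad2, and in 46LCNEC_cell for Eif2ak2. The lowest mean was in 57SCLC_cell for 19 members and in 46LCNEC_cell for 15. One of the cultured lines was thus the lowest group for 34 of the 37 members. This ranking was not made for all genes, of which 35% were called lower than Lung in 46LCNEC_cell and 32.7% in 57SCLC_cell. On the scale of normalized counts per kb of exon, which allows genes to be compared with each other, the leading member was the kinase Eif2ak2 (PKR) at 372 in 46LCNEC_cell, Trim25, a ubiquitin ligase that activates RNA sensing, at 608 in 57SCLC_cell and 588 in 57SCLC_allo, and the tetherin gene Bst2 at 1340 in Lung. In 46LCNEC_allo it was Parp12 at 1050, which rested on tumor 319.

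The cultured lines were compared first, to ask how the same genes stand in the small cell and the large cell line without host cells. In log2(normalized count + 1), tested with limma over the 16920 genes with enough reads, 12 of the 32 members tested were higher in 57SCLC_cell and 12 were lower, where 23.9% of all genes were called higher and 22.2% lower. Calls required both an adjusted p no greater than 0.01 and a difference of 2-fold or more. The median log2 difference of the members was 0.06, against 0 over all genes, and 3 of the 12 lower members had 3 reads or fewer in 57SCLC_cell. Of the 12 lower members, 7 (Gbp2, Gbp3, Gbp7, Rtp4, Isg15, Parp14 and Ifit3) were under 10 normalized counts in every flask, and of the 12 higher members, 2 (Usp18 and Mx1) were under 10 in every dish. These entered the test through the line in which they were high, so the filter gave their direction and their values are a description without a test. Oas3, with fewer than 3 dishes at 10 or more, also passed the filter only with the flasks.

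The guanylate-binding GTPases, which attack the vacuoles of intracellular pathogens, were the lowest group in 57SCLC_cell. Gbp2 had 178, 224 and 184 normalized counts in dishes A, B and C of 46LCNEC_cell and 0 reads in all 3 flasks of 57SCLC_cell, which made it at least 352-fold lower with the floor set at 3 reads over the group. Gbp3 had 63.8, 61.8 and 72.3 against 1.09, 0 and 0, a ratio of 178 with a 95% counting interval of 49.4 to 1473. Gbp7 had 83.5, 69.5 and 57.7 against 3.82, 7.24 and 4.17, a log2 difference of -3.58 ± 0.28 (SE, n = 3 in each group). All 3 genes thus had reads in every dish and next to none in the flasks.

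Several effectors with other functions were low in the same flasks. Rtp4, a receptor transport protein with antiviral action, had 367, 368 and 292 normalized counts in 46LCNEC_cell and 3.27, 3.62 and 1.56 in 57SCLC_cell, which gave a log2 difference of -6.53 ± 0.27. Isg15, the ubiquitin-like modifier, had 109, 163 and 98.4 against 7.09, 1.81 and 5.21, a log2 difference of -4.55 ± 0.41. Parp14, an ADP-ribosyltransferase, had 60.0, 65.1 and 49.97 against 5.46, 7.24 and 6.77, a log2 difference of -2.99 ± 0.22. The groups did not overlap for these genes. Ifit2 and Ifit3, which bind foreign RNA, Bst2, Xaf1, Irf1 and the kinase Eif2ak2 were the other members called lower, with Irf1 at 843, 817 and 870 against 325, 325 and 329.

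Members of the same antiviral set went the other way. Cmpk2, a mitochondrial nucleotide kinase, had 15.01, 35.3 and 36.9 normalized counts in 46LCNEC_cell and 1280.3, 1231 and 927 in 57SCLC_cell, which gave a log2 difference of 5.34 ± 0.33 (adjusted p = 2.16e-06). Its neighbor Rsad2 (viperin), which makes a chain-terminating nucleotide from CTP, had 20.6, 19.9 and 17.7 against 268, 254 and 219, a log2 difference of 3.60 ± 0.17 (adjusted p = 4.72e-07). Both genes of this pair were thus higher in every flask than in any dish. Usp18, which removes Isg15 from proteins and damps the interferon receptor, had 0.938, 6.62 and 1.54 against 124, 119 and 145, a log2 difference of 5.28 ± 0.48. Mx1, a dynamin-like GTPase against influenza virus, had 0.938, 9.93 and 3.84 against 85.1, 95.3 and 75.0, a log2 difference of 4.20 ± 0.56. Usp18 was thus 42.7-fold higher by the means in the line in which Isg15 was 26.3-fold lower.

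Among the sensors, Ifih1 had 94.8, 89.4 and 78.4 normalized counts in 46LCNEC_cell and 617, 621 and 399 in 57SCLC_cell, and Cgas had 357, 363 and 389 against 1231, 1251 and 938. Their log2 differences were 2.60 ± 0.20 for Ifih1 (adjusted p = 6.8e-06) and 1.61 ± 0.13 for Cgas (adjusted p = 8.45e-06). The RNA-activated kinase Eif2ak2 was at 1852, 2107 and 2099 against 882, 905 and 697, a log2 difference of -1.29 ± 0.12 (adjusted p = 1.97e-05), so the sensors did not move together. Zbp1, the sensor of left-handed nucleic acids, was not tested between the lines, as it had between 6.92 and 11.26 in 46LCNEC_cell and between 0.603 and 3.65 in 57SCLC_cell. Oas3, the synthetase of long oligoadenylates, was 12.2-fold higher by the means in 57SCLC_cell, whereas Oas1a and Oas2 were under 10 in all 6 samples. Of the transcription factors, Irf7, Irf9 and Stat2 were higher in 57SCLC_cell, by log2 differences of 1.5 ± 0.22, 1.23 ± 0.12 and 1.07 ± 0.10. Trim25, Oas3 and Parp12 made up the rest of the members called higher.

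**Figure D2:**
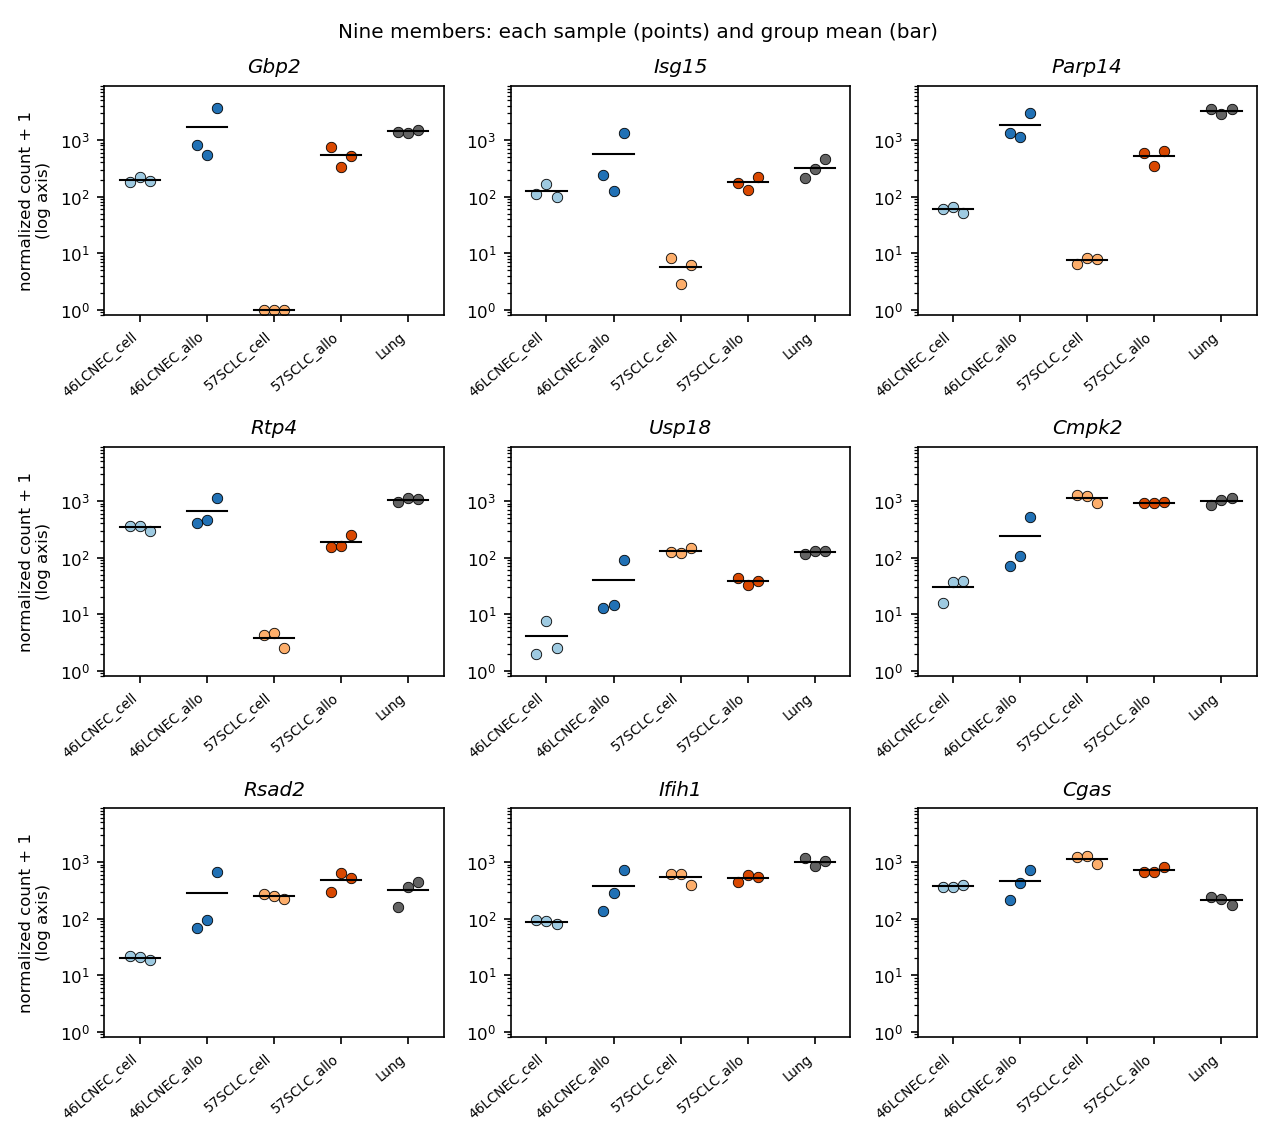
Normalized count + 1 on a log axis for 9 members in each sample (points) of the 5 groups, with the mean of each group as a bar. Gbp2, Isg15, Parp14 and Rtp4 sit lowest in 57SCLC_cell, Usp18, Cmpk2, Rsad2 and Ifih1 sit lowest in 46LCNEC_cell, and Cgas has its lowest mean in Lung.

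A further list of 76 genes of the pathway gave the levels upstream of these members. Of its 47 genes tested between the cultured lines, 3 were higher in 57SCLC_cell and 20 lower, where 23.9% and 22.2% of all genes were. Among the 47, Aim2, Ifi204 and Tlr7 were under 10 in every flask and entered through the dishes, so the filter gave their direction. Such genes were not counted over the whole list. Jak1, the kinase shared by the receptors of all 3 interferon types, had 36.5, 18.1 and 35.4 normalized counts in 57SCLC_cell and 3592, 3481 and 3447 in 46LCNEC_cell, a log2 difference of -6.89 ± 0.25 (adjusted p = 1.04e-07). The receptor genes Ifnar2, Ifngr1 and Ifngr2 were lower in 57SCLC_cell by log2 differences of -3.02, -2.65 and -2.86, and Sting1, the adaptor downstream of Cgas, was at 68.7, 72.4 and 109 against 1222, 1199.7 and 1306. These 5 genes were thus lower in every flask than in any dish, but the interferon lambda receptor Ifnlr1 was higher, by 1.14 on the log2 scale. Of the 6 receptor genes 1 was higher and 3 were lower, and Ifnar1, Irf3 and Tyk2, with log2 differences of -0.91, 0.80 and 0.15, were not called. The DNA-binding Ifi204 had 0 reads in 57SCLC_cell and between 463 and 720.4 in 46LCNEC_cell. Of the 10 interferon genes listed, 0 reached the filter in this comparison, with Ifnb1 at no more than 2.21 in any sample.

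Before the tumors were compared with the cells, the spread among tumors was measured. Tumor 321 exceeded both other 46LCNEC_allo tumors at least 2-fold for 28 of 37 members, while 4.06% of the 15101 genes measured in these tumors did so. Its ratio to the mean of tumors 312 and 319 had a median of 3.77 over the members, from 0.407 (Parp12) to 10.6 (Irf7), and of 0.999 over 17432 genes. Irf7, the factor that amplifies type I interferon, was at 196, 94.7 and 1534 in tumors 312, 319 and 321, Ifit1 at 146, 149 and 1269, and Gbp2 at 805, 547 and 3736. Tumor 321 stood apart for each of these. Parp12, an ADP-ribosyltransferase that restricts viruses, was the exception, with 1846, 9492 and 2309, so tumor 319 was highest. In 57SCLC_allo, 0 of 37 members were at least 2-fold higher in a tumor than in both others, and the members' ranges there were within 2-fold of the median tumor.

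Markers of immune cells moved with tumor 321, in which all 7 genes of the T and NK cell list were at their highest among the 3 tumors. Their summed level was 109, 69.5 and 1270 in tumors 312, 319 and 321, with Cd3e at 3.97, 2.11 and 150, Cd8a at 13.2, 2.11 and 403 and Ncr1 at 3.97, 2.11 and 83.0. Ifng was at 0, 0 and 16.6. The same T and NK sum was between 210 and 385 in 57SCLC_allo, between 1860 and 2330 in Lung, and between 3.75 and 13.5 in the cultured lines, where Cd3e, Cd3d, Ncr1 and Gzmb were at 0. The part of these cells in the members' levels was not tested.

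**Figure D3:**
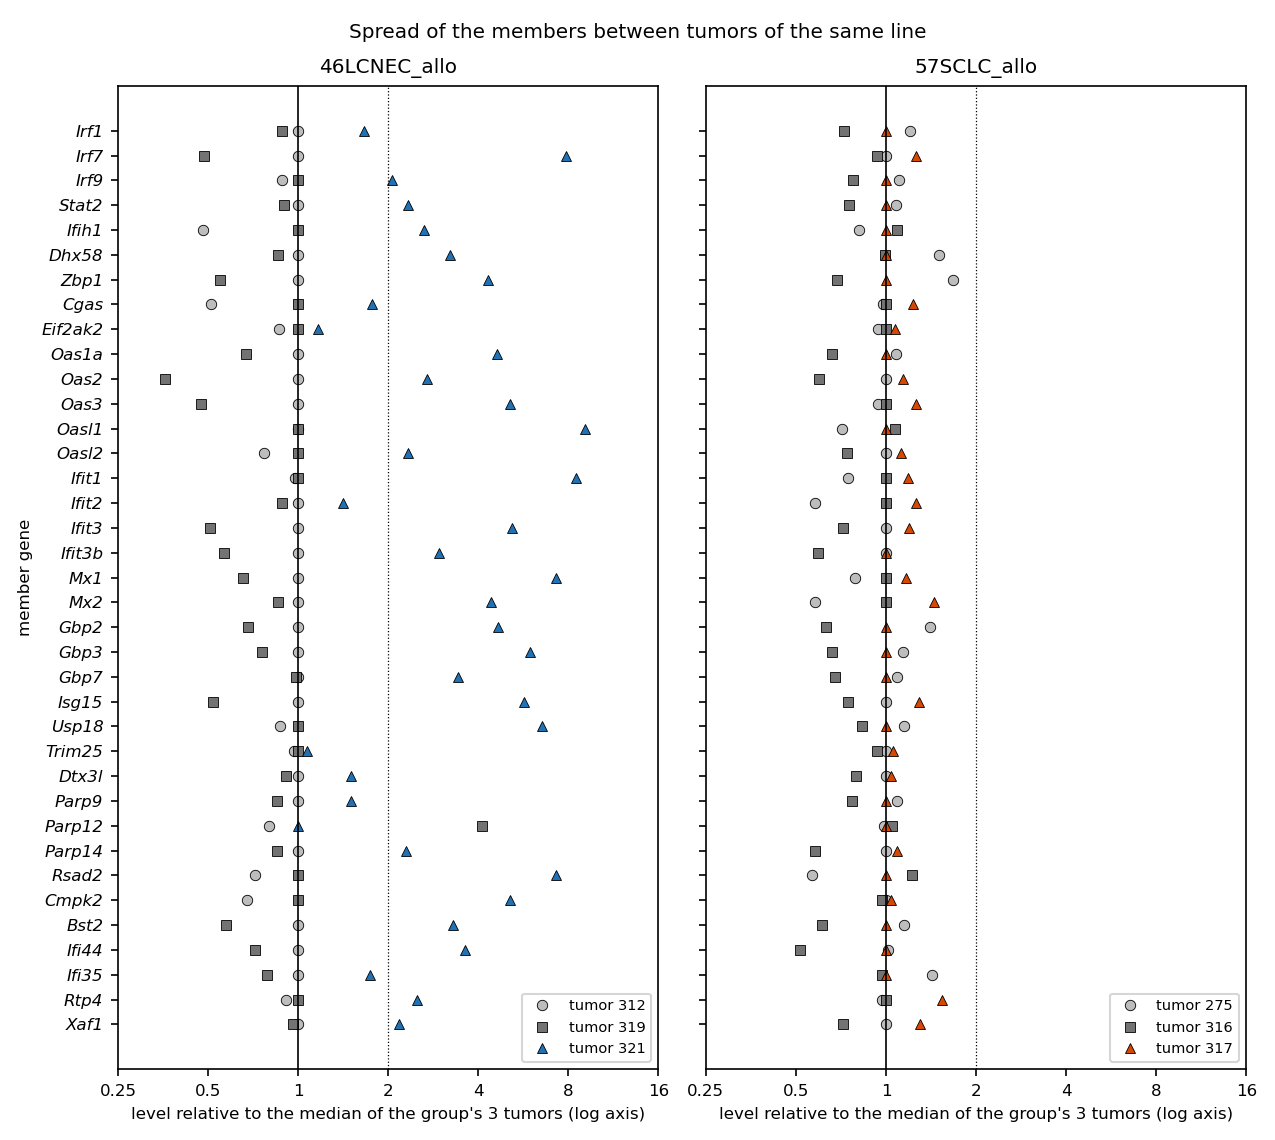
Level of each of the 37 members in each allograft tumor relative to the median of the 3 tumors of its line (log axis, dotted line at 2-fold), with 46LCNEC_allo on the left and 57SCLC_allo on the right. Triangles of tumor 321 lie to the right of the other tumors for 36 of 37 members, and the tumors of 57SCLC_allo lie within 2-fold of their median.

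Each line was then compared with its own allografts, to ask what changes when the cells grow in a host. In 46LCNEC_allo, 16 of 37 members rose over 46LCNEC_cell, where 14.4% of 16375 genes did, and 36 of the 37 estimates were above 0. No member was called lower by limma, edgeR or DESeq2 (0 in each, and 0 at an unadjusted p under 0.05), where 8.45% of all genes were. The median log2 change was 2.49, against -0.001 over all genes. Without tumor 321, 20 members rose, where 13.9% of genes did, with a median of 1.77 against -0.01 over all genes, and Rsad2, Gbp2, Ifit1 and Ifit3 were added. Without dish A or without dish C, 10 members rose. The 5 members under 10 normalized counts in every dish (Oas1a, Oas2, Ifit3b, Mx1 and Usp18), of which 4 were among the 16, entered the test through the tumors, so their direction was given by the filter. Zbp1, Ifi44 and Oas3 had fewer than 3 dishes at 10 or more, so they also needed the tumors to pass the filter. Zbp1 and Ifi44 were among the 16. Fewer cells of a type and less RNA per cell cannot be told apart in these bulk samples.

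The oligoadenylate synthetase group held the largest changes in 46LCNEC_allo, and 3 of the 5 rose. Of these 3, Oas1a and Oas2 entered the test through the tumors, so the filter gave their direction. Oasl2 had 15.01, 21.0 and 20.8 normalized counts in the dishes and 1201, 1559.9 and 3625 in the tumors, a log2 change of 6.59 ± 0.40 (adjusted p = 2.88e-05). Oas2 went from 0, 8.83 and 2.31 to 309, 111 and 831, a log2 change of 6.58 ± 0.98. Both were at least 10-fold above every dish in every tumor. Zbp1, the sensor named above, had 11.26, 11.04 and 6.92 in the dishes and 486, 267 and 2101 in the tumors, a log2 change of 5.95 ± 0.70. Zbp1 and Oas2 passed the filter only with the tumors, so their values are a description. Parp14 went from between 49.97 and 65.1 to between 1119.9 and 3039, and its partners Parp9 and Dtx3l, neighbors that act as a complex, rose by log2 2.11 ± 0.22 and 3.13 ± 0.24. Mx1, which also passed the filter only with the tumors, had a log2 change of 5.23 ± 0.99. Irf1 rose by 1.97 ± 0.22 on the log2 scale and was at 2901, 2569 and 4823 in the tumors. Of the GTPases 3 of 5 rose, of the IFIT genes 1 of 4, of the sensors 1 of 5 and of the transcription factors 2 of 4. Among these, Mx1, the IFIT gene Ifit3b and the sensor Zbp1 passed the filter only with the tumors. Of the sensors, Cgas and Eif2ak2 had log2 changes of 0.12 ± 0.40 and -0.15 ± 0.13 and were not called, and Isg15 was at 237, 123 and 1351 in the tumors, which overlapped the dishes.

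In 57SCLC_allo, 19 of 37 members rose over 57SCLC_cell and Usp18 fell, where 14.4% of 17078 genes rose and 2.29% fell. The median log2 change was 1.29, against 0.004 over all genes, and was 1.29 also with the 5 members of 3 reads or fewer in the flasks set at their bounds. All 12 members with a mean under 10 in the flasks were among those that rose, but they entered the test through the tumors, so their direction was given by the filter. The other 7 that rose were Irf1, Irf7, Oasl1, Oasl2, Ifit1, Bst2 and Xaf1. Gbp2 went from 0 reads to 737, 331 and 524 normalized counts, at least 958-fold higher. Gbp3 went from 1.09, 0 and 0 to 330.3, 191 and 290.5, a ratio of 732 with a counting interval of 203 to 6046, and Ifi44 had a ratio of 301 with an interval of 54 to 11880. Reads of all 3 genes were thus present in every tumor. Oas2 rose by a log2 change of 7.09 ± 0.41, from 0, 1.206 and 1.04 to 254, 151 and 289. Zbp1 rose from between 0.603 and 3.65 to between 176 and 426, Rtp4 from between 1.56 and 3.62 to between 156 and 246, and Isg15 from between 1.81 and 7.09 to between 130.2 and 225.

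Among the members that were not low in the flasks, Irf7 rose from 64.4, 58.5 and 47.9 to 249, 232 and 314, a log2 change of 2.20 ± 0.20 (adjusted p = 5.12e-05). Ifit1 rose from 32.2, 38.6 and 73.5 to 232, 311 and 369.9, a change of 2.70 ± 0.32 (adjusted p = 0.000286), and Bst2, which tethers budding virus to the cell, from 96.6, 84.4 and 69.8 to 639, 341 and 558, a change of 2.57 ± 0.25 (adjusted p = 8.29e-05). Each of these 3 genes was higher in every tumor than in any flask. With the members under 10 in every flask counted too, 4 of 5 synthetases, 3 of 4 IFIT genes and 3 of 5 GTPases rose. So did 2 of 4 transcription factors and 1 of 5 sensors. Among these, Oas1a, Oas2, Ifit3, Ifit3b, Gbp2, Gbp3, Gbp7 and Zbp1 entered the test through the tumors, so the filter gave their direction.

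Several members that were high in the flasks were not called. Cmpk2 was at 931, 905 and 971 in the tumors, with a log2 change of -0.28 ± 0.13, and Ifih1 was at 436, 583 and 534, with a change of -0.06 ± 0.20. Trim25, Eif2ak2 and Stat2 had log2 changes of -0.03, -0.05 and 0.22, and their tumors overlapped the flasks. Usp18 was the member that fell, from 124, 119 and 145 to 43.1, 31.1 and 37.4, a log2 change of -1.78 ± 0.21 (adjusted p = 0.000269), and limma, edgeR and DESeq2 each called 1 member lower, with 3 at an unadjusted p under 0.05. Cgas had a log2 change of -0.67 ± 0.14, under the 2-fold threshold. Rsad2 was at 289.7, 626 and 513, with a change of 0.88 ± 0.26 (adjusted p = 0.0299).

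Host cells were present in both sets of tumors. The summed macrophage markers were between 265 and 385 in the cultured lines, between 24500 and 47700 in 46LCNEC_allo and between 9210 and 15600 in 57SCLC_allo, with 5 of the 6 markers above the floor of 3 reads in the tumors and Itgam at 0 in every sample. The pan-leukocyte gene Ptprc was at no more than 5.63 in culture, between 899 and 2730 in 46LCNEC_allo and between 504 and 777 in 57SCLC_allo. Jak1, at 886, 548 and 839.7 in 57SCLC_allo, rose there by a log2 change of 4.65 ± 0.31, and of the 58 pathway genes tested 34 rose. Of the 58, 7 had 3 reads or fewer in the flasks, and Tlr7 and Tlr9 were under 10 in every flask. Such genes entered the test through the tumors, so the filter gave their direction. In 46LCNEC_allo, 22 of 57 rose and Ifnlr1 fell. Of the 57, Tlr9 had 1 read in the dishes and also entered through the tumors. The share of all genes that rose was 14.4% in each line. The fibroblast sum was between 74000 and 84200 in 46LCNEC_cell and between 310000 and 688000 in 46LCNEC_allo. In 57SCLC it was between 24 and 31.1 in the flasks and between 32200 and 50900 in the tumors. The neuroendocrine sum went from between 28600 and 31500 to between 3090 and 7400 in 46LCNEC, and from between 20800 and 22000 to between 21400 and 23900 in 57SCLC. Whether the members' RNA came from tumor or host cells was not tested.

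**Figure D4:**
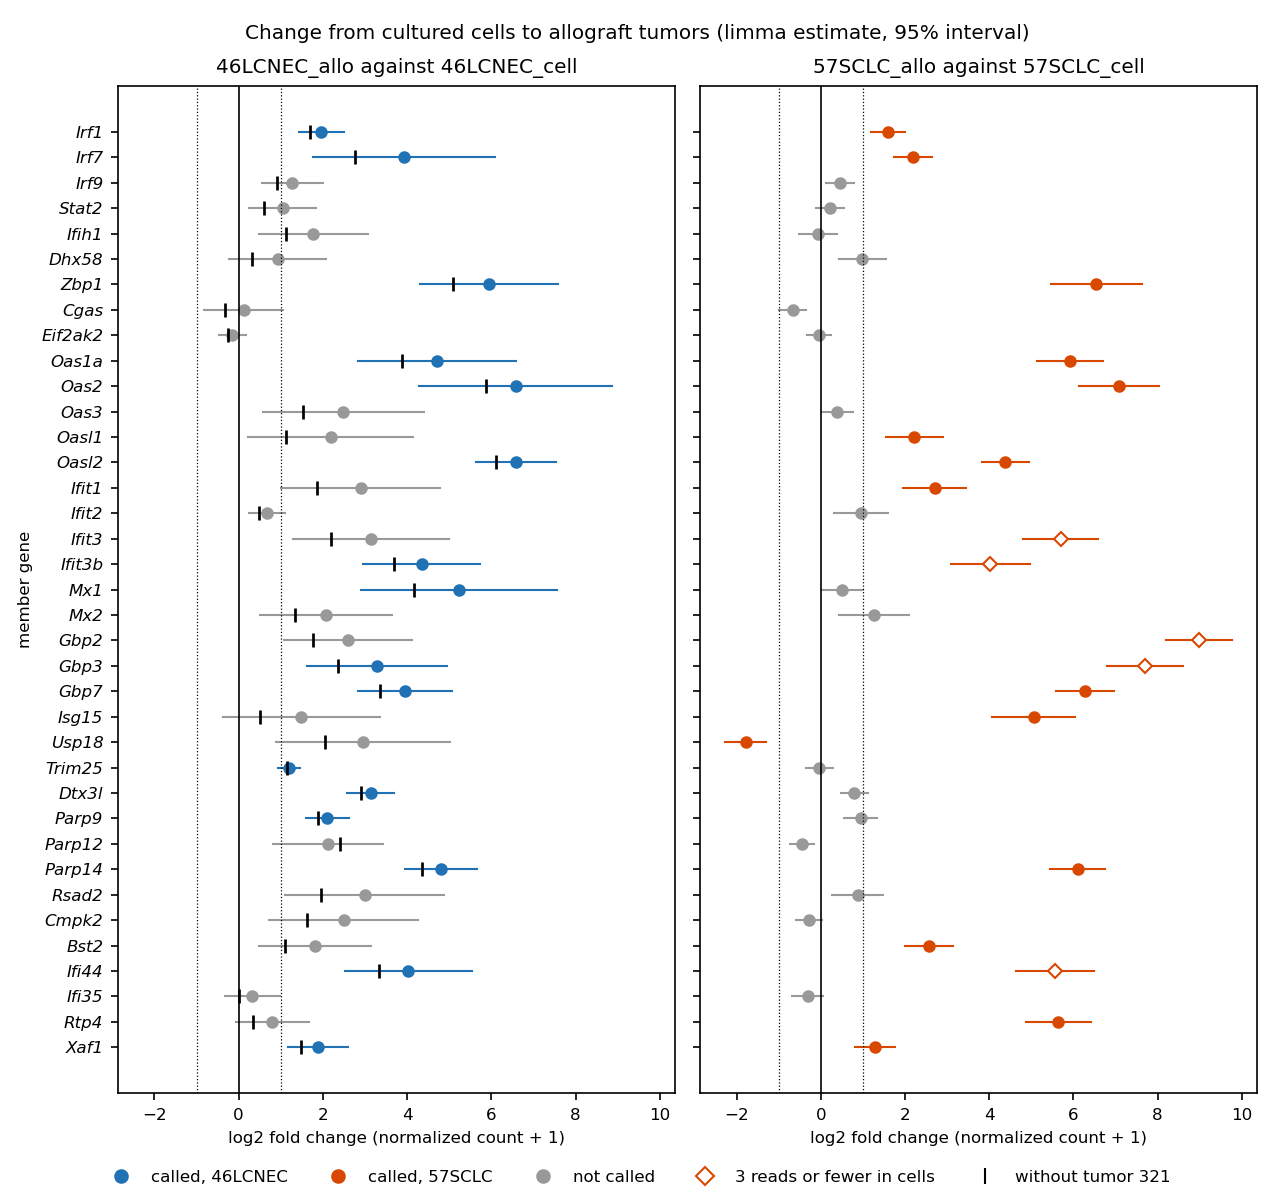
Log2 change of each of the 37 members from cultured cells to allografts, with limma 95% intervals, for 46LCNEC (left) and 57SCLC (right). Colored points passed the test, open diamonds had 3 reads or fewer in the flasks and their size depends on the pseudocount, black ticks are estimates without tumor 321, and dotted lines mark a 2-fold change. In 46LCNEC 36 of 37 points lie above 0, and in 57SCLC 19 members rose while others lie near 0.

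The change on transplantation differed between the lines for 10 of 37 members in a test of the difference itself over 12 samples. It was larger in 57SCLC for Gbp2, Gbp3 and Rtp4, where 10.8% of 18440 genes were called larger, and smaller for Oasl2, Mx1, Usp18, Trim25, Dtx3l, Parp9 and Parp12, where 6.78% were called smaller. Gbp2 and Gbp3 had 0 and 2 reads in the flasks, so the size of their difference depends on the pseudocount. Rtp4 had a log2 difference of changes of 4.83 ± 0.53, with between 292 and 368 in the dishes and between 412 and 1128 in the tumors of 46LCNEC. Usp18 had one of -4.73 ± 0.97, falling in 57SCLC while its 46LCNEC_allo values of 11.9, 13.7 and 89.6 were each above the dishes. Gbp2, Gbp3 and Rtp4 were under 10 in every flask, and Usp18 and Mx1 were under 10 in every dish. They passed the filter through the other groups, so their values are a description. Without tumor 321, 7 members had a larger change in 57SCLC, where 12.6% of genes did, as Gbp7, Isg15, Ifit3 and Parp14 were added. These added members were also under 10 in every flask and passed the filter through the other groups, so they too are a description. In the same case 7 were smaller, where 6.82% were, with Cmpk2 added and Parp9 lost. The 7 smaller changes were 3 or 4 when any one tumor of 57SCLC_allo, dish or flask was left out.

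The tumors of the lines were then compared with each other. Of 37 members, 7 were lower in 57SCLC_allo than in 46LCNEC_allo, where 14.2% of 17502 genes were, and the median log2 difference was -0.98, against 0.02 over all genes. No member was called higher by limma or edgeR (0 in each), DESeq2 called 1, and 1 had an unadjusted p under 0.05, where 16.1% of all genes were called higher. Ifit2 was at 1454, 1281 and 2053 in 46LCNEC_allo and 134, 232 and 292 in 57SCLC_allo, a log2 difference of -2.90 ± 0.32 (adjusted p = 0.000365). Xaf1, a pro-apoptotic partner of XIAP, was at 2118, 2043 and 4614 against 440.5, 316 and 571, a log2 difference of -2.66 ± 0.36 (adjusted p = 0.000965). Oasl2 was at 1201, 1559.9 and 3625 against 512, 381 and 573, a log2 difference of -1.97 ± 0.41 (adjusted p = 0.00588). Irf1, Eif2ak2, Dtx3l and Parp9 were the others. Gbp2, which was at least 352-fold lower in the flasks than in the dishes, had a log2 difference of -1.23 ± 0.71 between the tumors and overlapped.

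Tumor 321 bore on this comparison too. Without it, Cmpk2, Rsad2, Oas3 and Oasl1 were higher in 57SCLC_allo, by log2 differences of 3.44, 2.52, 2.45 and 1.85, and 17.3% of genes were called higher. In the same case 8 members were lower, with Rtp4 added, where 13.3% of genes were, and the median was -0.36 against 0.05 over all genes. The 4 members higher in that case include the Rsad2 and Cmpk2 neighbors that were high in the flasks. Cmpk2 was at 70.2 and 104 in tumors 312 and 319, 529.9 in tumor 321, and between 905 and 971 in 57SCLC_allo.

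Normal lung, a mixture of many cell types, was the reference for all 4 tumor groups. In 46LCNEC_cell, 34 of 37 members were lower than in Lung, where 35% of 18142 genes were, with a median log2 difference of -3.01, against -0.23 over all genes. No member was called higher by limma (0), edgeR and DESeq2 called 1 each and 2 had an unadjusted p under 0.05, where 20.6% of genes were called higher. The 5 members under 10 in every dish were among the 34, and these entered the test through Lung, so the filter gave their direction. One of them, Oas2, was at 468, 497 and 412 in Lung, a log2 difference of -7.17 ± 0.68, Oasl2 was at 1781, 1622 and 2303, a difference of -6.58 ± 0.19 (adjusted p = 4.15e-09), and Ifit3b, another of the 5, was at 315, 318 and 519.8 against between 3.31 and 4.69, a difference of -6.18 ± 0.28. The oligoadenylate synthetases and the Mx and guanylate-binding GTPases were lower for all 5 genes of each group. Cgas, Eif2ak2 and Ifit2 were the members not called. Zbp1, Ifi44 and Oas3, which had fewer than 3 dishes at 10 or more, were called lower and also needed Lung to pass the filter.

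In 57SCLC_cell, 26 of 37 members were lower than in Lung and Cgas was higher, where 32.7% of 18467 genes were lower and 21.1% higher. The median log2 difference was -3.57, against -0.12 over all genes, and 5 members had 3 reads or fewer. The 12 members under 10 in every flask were all among the 26 and entered through Lung, so the filter gave their direction, and the other 14 did not depend on it. Gbp2 was at 1411, 1312 and 1518 in Lung, so it was at least 2550-fold lower in the flasks. Ifit3, with 3 reads in the flasks, had a ratio of 2644 with a counting interval of 905 to 12820, and Gbp3, with 2 reads, one of 2597 with an interval of 719 to 21450. Cgas was at 235, 219 and 171 in Lung, a log2 difference of 2.45 ± 0.17 (adjusted p = 3.86e-06), and edgeR and DESeq2 also called 1 member higher, with 2 at an unadjusted p under 0.05. Cmpk2 and Usp18 had log2 differences from Lung of 0.19 ± 0.16 and 0.05 ± 0.16, and their flasks overlapped the lungs. The 95% intervals were -0.18 to 0.57 for Cmpk2 and -0.32 to 0.42 for Usp18, in flasks in which Ptprc was at no more than 0.521 and in lungs in which it was between 3560.5 and 3890.5. The sum of the 4 leukocyte markers, Ptprc among them, was between 1060 and 1100 in these flasks and between 12400 and 13300 in Lung.

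The medians against Lung were nearer 0 in the tumors than in the cultured cells. In 46LCNEC_allo the median log2 difference was -0.55, against -0.14 over all genes, and Irf9, the DNA-binding partner of Stat2, was the member called lower, where 22.1% of 18033 genes were. Irf9 was at 503, 572 and 1173 against 1870, 1967 and 1820, a log2 difference of -1.44 ± 0.31 (adjusted p = 0.00674), and edgeR called 0 members lower and DESeq2 3, with 10 at an unadjusted p under 0.05. No member was called higher by limma or edgeR (0 in each), DESeq2 called 1, and 1 had an unadjusted p under 0.05, where 13.4% of genes were called higher. This count rested on tumor 321, since without it 18 members were lower, where 25.3% of genes were, with a median of -1.30 against -0.19 over all genes. With any other single tumor or lung left out, 0 members were called lower. In 57SCLC_allo 26 members were lower, where 26.9% of 18517 genes were, with a median of -1.33, against -0.09 over all genes.

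Ifit3b, Ifit3 and Xaf1 had the largest differences from Lung in 57SCLC_allo. Ifit3b was at 21.5, 12.7 and 21.6 against 315, 318 and 519.8, a log2 difference of -4.29 ± 0.31 (adjusted p = 7.22e-06), Ifit3 was at 79.0, 56.6 and 94.2 against 1135, 1339 and 1925, a difference of -4.24 ± 0.25 (adjusted p = 2.43e-06), and Xaf1 was at 440.5, 316 and 571 against 3610.2, 3756 and 3562, a difference of -3.08 ± 0.19 (adjusted p = 3.29e-06). All 3 genes were lower in every tumor than in any lung. Cgas was the member called higher, by 1.78 ± 0.16 (adjusted p = 2.63e-05), where 18.9% of genes were called higher, while edgeR called 2 and DESeq2 3, and 3 had an unadjusted p under 0.05. Without CT5, limma called 3 members higher, and without tumor 275 or 316 it called 2. Zbp1, Isg15, Rsad2 and Cmpk2 overlapped Lung. The macrophage marker sum was between 86500 and 116000 in Lung, mostly from Lyz2. Without Lyz2 it was between 6161 and 6949 in Lung, between 3014 and 5697 in 57SCLC_allo and between 10470 and 13530 in 46LCNEC_allo, so the order of Lung and 46LCNEC_allo turned on that gene. The part of these cells in the differences was not tested. Among the pathway genes, 35 of 58 were lower in 57SCLC_allo than in Lung, where 26.9% of all genes were. In 46LCNEC_allo 6 of 59 were, against 22.1%, or 23 of 59 without tumor 321, against 25.3%.

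**Figure D5:**
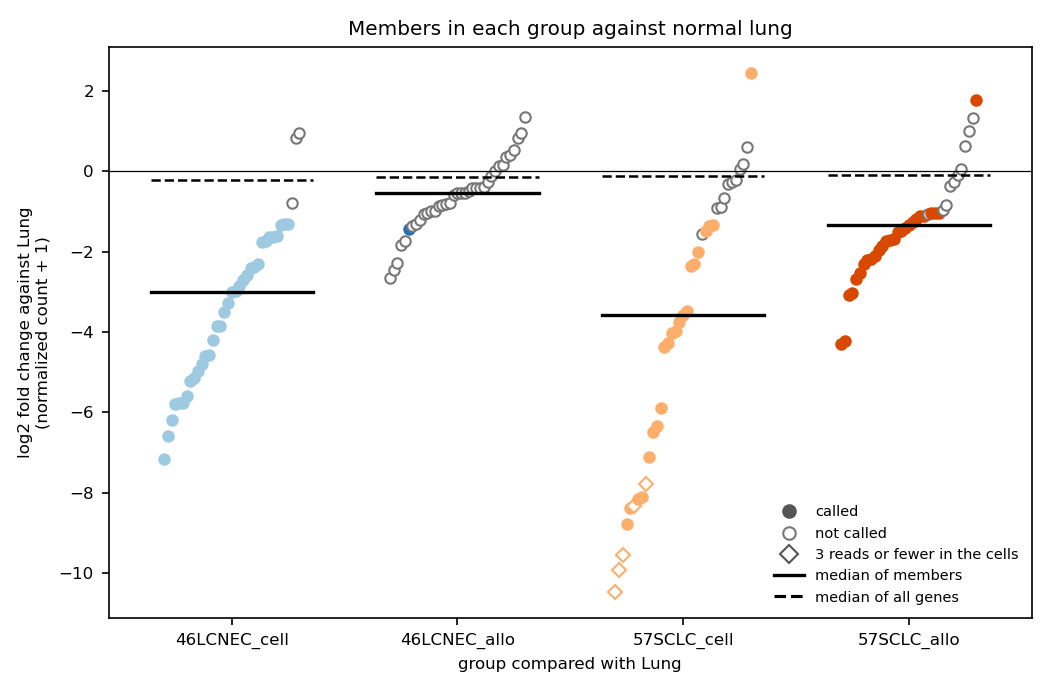
Log2 difference from Lung of each member tested, ordered within each of the 4 groups, with filled points for those that passed the test, open points for those that did not and open diamonds for those with 3 reads or fewer in the flasks. Solid bars are the medians of the members, at -3.01, -0.55, -3.57 and -1.33 from left to right, and dashed bars are the medians of all genes.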

How the data were processed

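Poly-A selected, paired-end RNA-seq of 15 samples was used. Per the paper's methods and the labels, the authors aligned reads to GRCm39 (Rbowtie2), counted them per gene (featureCounts, GENCODE release 27; strand and multiple-mapping settings are not given in the sources used here), and deposited a matrix of normalized counts, a signal made by dividing counts by DESeq2 size factors. Whole reads, recovered as multiples of each sample's step, came out for 100% of values within 0.01 read. The members and lists were chosen with earlier results of these data known.

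Groups were compared with limma 3.58.1 (R 4.3.3; trend) on log2(normalized count + 1), over the 6 samples compared (12 for the difference of changes) and genes that reached 10 normalized counts in 3 or more samples. Calls required a p adjusted by Benjamini-Hochberg no greater than 0.01 together with a change of 2-fold or more. This scale understates changes of low genes. An exact permutation test of 3 against 3 samples cannot go below 0.1 and was not used. The floor was 3 reads, and intervals and floors cover counting error only. The alternatives were edgeR 4.0.16 and DESeq2 1.42.0 on the recovered reads, other scalings, pseudocounts, filters and thresholds, all 15 samples in 1 model, each sample left out and the letters as a replicate block. Scripts were tested on simulated data. Values are given by sample for members fixed by role and for the 3 called members with the largest changes in each direction that reached 20 normalized counts in every sample of the higher group; other named members were chosen after their values were seen. Coordinates came from GENCODE release 39 and promoters from RefSeq (GRCm38.p6). Python 3.11.15, numpy 2.4.6, pandas 2.3.3 and matplotlib 3.10.9 were used. Replicates differed by more than counting noise and were not merged. A further deleted allele of the QKO model is not reported here.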

Additional observations from a re-analysis of the deposited data

Results flagged for a closer look

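The change from culture to allograft differed between the lines for 10 members, by the test of the difference itself over 12 samples. As the log2 change in 57SCLC minus that in 46LCNEC, it was 6.38 for Gbp2, 4.40 for Gbp3 and 4.83 for Rtp4. It was -4.73 for Usp18, -4.72 for Mx1, -2.57 for Parp12, -2.33 for Dtx3l, -2.21 for Oasl2, -1.23 for Trim25 and -1.16 for Parp9. Thus 3 of 37 members were larger and 7 smaller, where 10.8% of 18440 genes were called larger and 6.78% smaller. The 7 smaller changes were 3 or 4 when any one tumor of 57SCLC_allo, dish or flask was left out. The values of Gbp2 and Gbp3 rest on flasks with 0 and 2 reads in all, so their size depends on the pseudocount, and that of Parp12 contains tumor 319, at 9492 normalized counts against 1846 and 2309 in the other two tumors. Gbp2, Gbp3 and Rtp4 were under 10 in every flask, and Usp18 and Mx1 were under 10 in every dish. These genes passed the filter through the other groups. Groups of 3 samples were not tested for single samples that stand apart.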

How the results depend on the processing

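Of the 2906 pairs of a called member and an alternative, 2719 kept the direction and the call, 187 kept the direction and lost the call, and 0 changed direction. Members higher in 46LCNEC_allo than in 46LCNEC_cell (16) were 28 with DESeq2, 29 at an adjusted p of 0.05, 8 against a 2-fold change by limma treat, 29 in the model of all 15 samples, and 10 (without dish A or dish C) to 21 with a sample left out. Usp18 in 57SCLC_allo (1 lower) gave 0 by treat and 0 in the model of all 15 samples. Members higher in 57SCLC_cell than in 46LCNEC_cell (12) were 7 by treat. Between the allografts, members higher in 57SCLC (0) were 1 with DESeq2, at 0.05 and with all 15 samples, and 0 to 4 (without tumor 321), and members lower (7) were 14 with DESeq2, 2 by treat and 11 with all 15 samples.

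Against Lung, members higher in 46LCNEC_cell (0) were 1 with edgeR, DESeq2 and TMM, 2 with the upper quartile, and 0 to 1 (without dish A or CT5). For 46LCNEC_allo, members higher (0) were 1 with DESeq2, and members lower (1) were 0 with edgeR and treat, 3 with DESeq2, 7 at 0.05 and with all 15 samples, and 0 (without any other tumor or lung) to 18 (without tumor 321). For 57SCLC_allo, members higher (1) were 3 with DESeq2 and library size, 2 with edgeR, TMM, upper quartile, a pseudocount of 0.1 and at 0.05, and 1 to 3 (without CT5), and members lower (26) were 12 by treat and 17 with all 15 samples. Larger changes in 57SCLC (3) were 5 at 0.05 and with all 15 samples and 3 to 7 (without tumor 321), and smaller changes (7) were 11 with DESeq2, 1 by treat and 3 (without tumor 316, dish A or C, or flask A or B) to 9. The cause was not tested, apart from the fewer samples or stricter thresholds by construction.

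The letters A, B and C with a replicate block gave 12 and 12 members between the cultured lines, as without it, and same-letter deviations correlated at 0.055, -0.064 and 0.005, so the letters did not pair the samples. Library-size scaling moved the median of all genes by 0.21 to 0.26 between 57SCLC and 46LCNEC or Lung and raised the share of calls that were higher between the allografts from 53.1% to 64.7%. At 1 read to 0.521 normalized counts or more, levels under the floor of 3 reads could not be told from 0.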

Other observations

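Of the pathway genes outside the 38 members, Ifnlr1, the receptor of interferon lambda, was at 401, 344 and 369 normalized counts in 46LCNEC_cell and at 9.27, 6.32 and 91.8 in tumors 312, 319 and 321, a log2 change of -4.28 ± 0.88 (limma, adjusted p = 0.00552). It was between 592 and 849 in the 57SCLC cells and tumors and between 1224 and 1289.6 in Lung. Rnaseh2a and Rnaseh2b, which encode subunits of the RNase H2 that clears RNA from DNA, were higher in 57SCLC_allo than in 46LCNEC_allo by log2 differences of 1.09 ± 0.21 (adjusted p = 0.00483) and 1.06 ± 0.16 (adjusted p = 0.0013), and higher than in Lung by 1.63 ± 0.12 and 1.41 ± 0.13. Tlr9, an endosomal sensor of DNA, was at 237, 118 and 541 in 46LCNEC_allo and at 33.5, 48.1 and 69.2 in 57SCLC_allo, from no more than 1.64 in either cultured line. These genes were not in the rule that chose the members and their values are given as a description of the list.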
